A study of Mus musculus with 3 samples.

Results

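Neutrophils and their precursors were the CD45+ (immune) cells of EGFR-driven mouse gliomas that held large amounts of S100a8 and S100a9 RNA. They were chosen by measured counts: a cell of the CD45+ sort was kept at 500 or more unique molecular identifiers (UMIs, tags that count single RNA molecules), 500 or more genes and at most 20% mitochondrial UMIs, and counted as a neutrophil at 30 or more UMIs of S100a8 and S100a9 together. This gave 357 neutrophils of 11218 kept CD45+ cells, in a table of 20811 deposited cells. The early tumor sample held 47 of 5110 CD45+ cells, the medium one 283 of 3988 and the late one 27 of 2120. Among 6676 kept cells of the CD45- sort (tumor and other nonimmune cells), 0 reached 30 UMIs, which allows a share of up to 0.0449%.

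Single-cell RNA-seq by inDrop, a droplet method, was run on brains of adult mice at 3 stages of tumor growth, labelled early, medium and large (here late). Every group carried the same alleles, among them a conditional transgene for wild-type human EGFR, a lox-stop-lox luciferase reporter and a constitutive loss of Cdkn2a, on a mixed background, with tumors started by stereotactic injection of a Cre lentivirus. Cdkn2a was therefore absent from the neutrophils as well as from the tumor cells, in every group. Brains were perfused with PBS and the cerebellum removed, and red cells were lysed before viable cells were sorted. Each stage and sort gave 4 libraries (A to D), spread over 3 sequencing runs that each held all stages. The labels say that a pair of samples was pooled where cells were few, but not to which stage it belonged. The libraries of a stage came from 1 tumor sample or pool, so there was 1 tumor sample per stage and no test between stages was possible. Stage cannot be told apart from the individual sample, and the intervals below (exact Clopper-Pearson for shares, exact Poisson for counts, 95%) cover counting error only. No tumor-free brain was among the samples analysed here.

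Neutrophils arise in bone marrow through ordered stages that fill successive granules. Promyelocytes make primary (azurophil) granule proteases and myeloperoxidase (Elane, Prtn3, Ctsg, Mpo). Myelocytes and metamyelocytes make secondary (specific) granule proteins (Ltf, Camp, Ngp, Lcn2). Band and segmented cells make gelatinase granules (Mmp9) and carry Cxcr2 and Csf3r, the receptors for recruiting chemokines and for granulocyte colony-stimulating factor. S100a8 and S100a9 form calprotectin, one of the most abundant proteins of the neutrophil cytosol. Division stops at the metamyelocyte stage, so cell cycle genes mark the earlier precursors. Circulating neutrophils are mostly segmented, and precursors normally stay in the marrow.

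Some of the genes followed here lie at these positions of GRCm38: S100a8 on chromosome 3 from 90668978 to 90670035, S100a9 on chromosome 3 from 90692632 to 90695721, Ngp on chromosome 9 from 110419747 to 110423012, Camp on chromosome 9 from 109847379 to 109849617 and Ltf on chromosome 9 from 111019271 to 111042767. Elane lies on chromosome 10 from 79886247 to 79888215. The bases just before the start of 4 genes are shown because those genes mark the 2 granule waves on which the results turn: Ngp, Camp and Ltf for secondary granules and Elane for primary granules. C/EBP factors (Cebpe among them) and PU.1 (Spi1) are known regulators of granule genes. Sequences are RefSeq's, GRCm38.p6, 5′ to 3′ on the gene's strand, and end at the annotated gene start. Capitals mark the letters TTGCNNAA (a C/EBP core) or GAGGAA (a PU.1 core), searched on both strands, on which GAGGAA also reads TTCCTC.

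Ngp, chr9:110419558-110419746, plus strand: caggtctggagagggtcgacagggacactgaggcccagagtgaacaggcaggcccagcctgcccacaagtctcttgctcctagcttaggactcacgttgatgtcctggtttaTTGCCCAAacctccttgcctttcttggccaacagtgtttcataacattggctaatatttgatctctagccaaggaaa

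Ltf, chr9:111019042-111019270, plus strand: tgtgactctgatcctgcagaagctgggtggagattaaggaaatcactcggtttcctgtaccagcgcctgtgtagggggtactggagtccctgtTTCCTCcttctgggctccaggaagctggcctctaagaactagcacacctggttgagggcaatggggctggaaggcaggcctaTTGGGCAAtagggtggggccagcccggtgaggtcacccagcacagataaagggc

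Camp, chr9:109849618-109849706, minus strand: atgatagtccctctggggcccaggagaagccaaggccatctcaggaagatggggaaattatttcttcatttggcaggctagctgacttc

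Elane, chr10:79886062-79886246, plus strand: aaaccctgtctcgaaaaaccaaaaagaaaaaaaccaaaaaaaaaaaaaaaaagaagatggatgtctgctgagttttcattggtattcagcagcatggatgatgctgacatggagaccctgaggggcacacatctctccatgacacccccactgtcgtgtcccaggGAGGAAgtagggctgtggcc

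The shown Ngp and Ltf stretches each held 1 C/EBP core, and those of Ltf and Elane each held 1 PU.1 core. The Camp stretch, 89 bases long, held neither. Over the whole windows of 250 bases before the RefSeq start, Ngp held 2 C/EBP cores and Ltf 1. Of all 32851 RefSeq promoters in the table, 9.56% held TTGCNNAA and 23.3% held GAGGAA in such a window.

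Neutrophil markers that the threshold did not use occurred in most of these cells, which describes the label and does not test it. A UMI of Ngp, Camp or Retnlg (a resistin-like protein of neutrophils) was present in 338 of 357 neutrophils (94.7%), against 1.82% of the other 10861 CD45+ cells. By stage the figure was 39 of 47 in early, 277 of 283 in medium and 22 of 27 in late. In the other CD45+ cells it was 0.454%, 4.02% and 1.24%, where median depth was 1966, 1953 and 2114 UMIs a cell. A UMI of Ngp, Camp, Retnlg, Ly6g or Lcn2 was missing from 10 neutrophils (6 early, 2 medium and 2 late). Mast cell and basophil markers were at 0 UMIs in all 357 neutrophils, and those of natural killer cells summed to 7 UMIs. Eosinophil markers had 144 UMIs in 54 neutrophils, with 5 or more in 6. Of 5 measured eosinophil markers 3 were at least 2-fold higher and 1 lower in neutrophils than in the other CD45+ cells (median log2 ratio 1.14). Monocyte markers were not so scarce, with 2242 UMIs in 280 neutrophils and 5 or more in 119. Of 8 monocyte markers 3 were at least 2-fold higher and 5 lower in neutrophils than in the other CD45+ cells. Of all 17145 genes in that comparison, 11.4% were higher and 32.4% lower. The threshold cut few cells: 5 neutrophils held 30 to 39 UMIs of S100a8 and S100a9 and 16 held 40 to 59, while 13 cells just outside held 20 to 29 and another 13 held 10 to 19. Of the rest, 10380 cells held 0. The median neutrophil held 145 such UMIs in early, 423 in medium and 505 in late, or 8.46%, 17.8% and 19.7% of its UMIs.

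Libraries of the medium sample shared cell barcodes. The 283 medium neutrophils carried 203 distinct barcodes, and 137 of them (48.4%) had a barcode that recurred in another CD45+ library of the same stage, in up to 4 libraries. Over all medium CD45+ cells 756 of 3988 shared a barcode, against 177 of 5110 (3.46%) in early, none of them neutrophils, and 99 of 2120 (4.67%) in late, 2 of them neutrophils. Of 228 copies of medium neutrophil barcodes in other libraries, 216 (94.7%) were themselves neutrophils. In 108 such pairs the share of UMIs from S100a8 and S100a9 differed by a median of 0.987 percentage points, where the SD over medium neutrophils was 8.64, and 107 pairs lay on the same side of the maturity axis, which compares UMIs of Ngp and Camp with those of Csf3r, Cxcr2 and Mmp9. Whether such pairs were 1 cell counted more than once was not tested. No neutrophil barcode was shared between stages. Keeping 1 copy of each barcode left 203 medium neutrophils, and all 133 listed genes with 100 or more UMIs kept their medium level within 1.5-fold. Shares of neutrophils, of the immature side and of cells rich in primary granule RNA are also given with 1 copy, and other counts of medium cells include every copy.

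Neutrophils made up a larger share of CD45+ cells in the medium tumor than in the early or late one. The share was 0.920% in early (95% interval 0.677 to 1.22%), 7.10% in medium (6.32 to 7.94%) and 1.27% in late (0.841 to 1.85%). The intervals of early and late overlapped and that of medium lay above both. With 1 copy of each barcode the medium share was 5.70% (4.96 to 6.51%), early 0.936% and late 1.21%. Neutrophils with 5 or more UMIs of microglia, macrophage, T cell or B cell markers numbered 77 (13, 56 and 8 by stage), and without them the shares were 0.667% in early, 5.77% in medium and 0.900% in late.

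The libraries of a stage did not hold equal shares. In early, library A held 6 neutrophils of 143 cells (4.20%), library B 18 of 1732 (1.04%), library C 11 of 1480 (0.743%) and library D 12 of 1755 (0.684%). In medium, library A held 59 of 687 cells (8.59%), library B 71 of 1481 (4.79%), library C 69 of 787 (8.77%) and library D 84 of 1033 (8.13%). In late, libraries C and D held 14 of 927 (1.51%) and 12 of 1085 (1.11%), while libraries A and B together gave 108 cells and 1 neutrophil. Early library A, the smallest of its stage, had the highest early share, yet the lowest medium library still exceeded it. Within sequencing runs the order of medium above early also held, at 8.59% against 4.20% in run 1, 6.17% against 1.04% in run 2 and 8.13% against 0.711% in run 3.

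**Figure D1:**
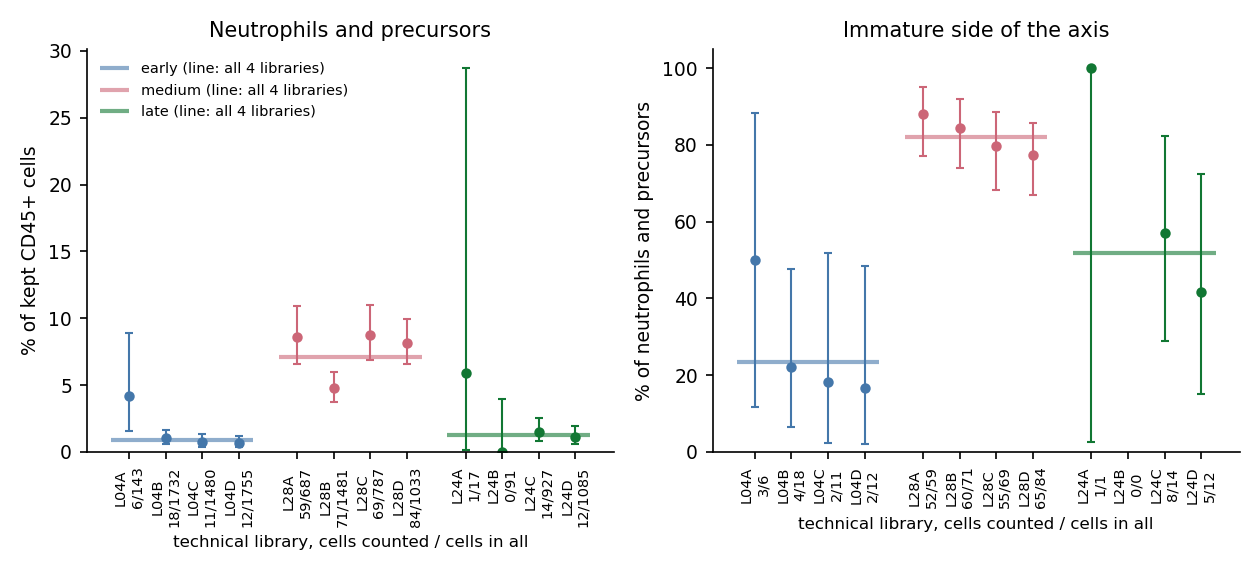
Share of kept CD45+ cells that were neutrophils (left, percent) and share of neutrophils on the immature side of the maturity axis (right, percent) in each library, labelled L04 for early, L28 for medium and L24 for late. Points carry 95% exact binomial intervals and horizontal lines give the stage, and the 4 medium libraries lie between 4.79% and 8.77% on the left, while late library A holds only 17 cells.

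Neutrophil maturity also differed between the stages. A neutrophil was placed on the immature side of an axis where its UMIs of Ngp and Camp, proteins of secondary granules, outnumbered those of Csf3r, Cxcr2 and Mmp9, and on the mature side where they were fewer. The axis is a range and not a boundary between cell types. The immature side held 11 of 47 early neutrophils (23.4%, 95% interval 12.3 to 38.0%), 232 of 283 medium ones (82.0%, 77.0 to 86.3%) and 14 of 27 late ones (51.9%, 31.9 to 71.3%). The early and medium intervals did not overlap, and the late interval overlapped that of early and not that of medium. With 1 copy of each barcode the shares were 23.4%, 77.3% (71.0 to 82.9%) and 52.0% (31.3 to 72.2%), and the late and medium intervals then overlapped. Few cells lay near the boundary: 3, 24 and 3 neutrophils had an index (log2 ratio of the immature to the mature count, each plus 1) from -1 to 1, both ends included.

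The median early neutrophil held 0 UMIs of Ngp and Camp and 9 of Csf3r, Cxcr2 and Mmp9. The median medium neutrophil held 157 and 3, and the median late one 18 and 10. No UMI of Ngp or Camp was found in 33 of 47 early, 34 medium and 10 late neutrophils, whereas no UMI of the 3 mature genes was found in 0, 69 and 0. Thinned to 1000 UMIs a cell, which left out 1 medium cell, the medians were 0, 60.5 and 5 for Ngp and Camp and 5, 1 and 6 for the mature genes. Among the other CD45+ cells a UMI of Ngp or Camp occurred in 0.217% of early, 3.40% of medium and 0.621% of late cells. A UMI of Csf3r, Cxcr2 or Mmp9 occurred in 34.1%, 22.6% and 31.0% of them, so the mature genes were less particular to neutrophils. Within stages the immature share of libraries ran from 77.4 to 88.1% in medium. In early it was 3 of 6 cells in library A and 16.7 to 22.2% in the other 3 libraries. In late it was 8 of 14 cells in library C (57.1%) and 5 of 12 in library D (41.7%).

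**Figure D2:**
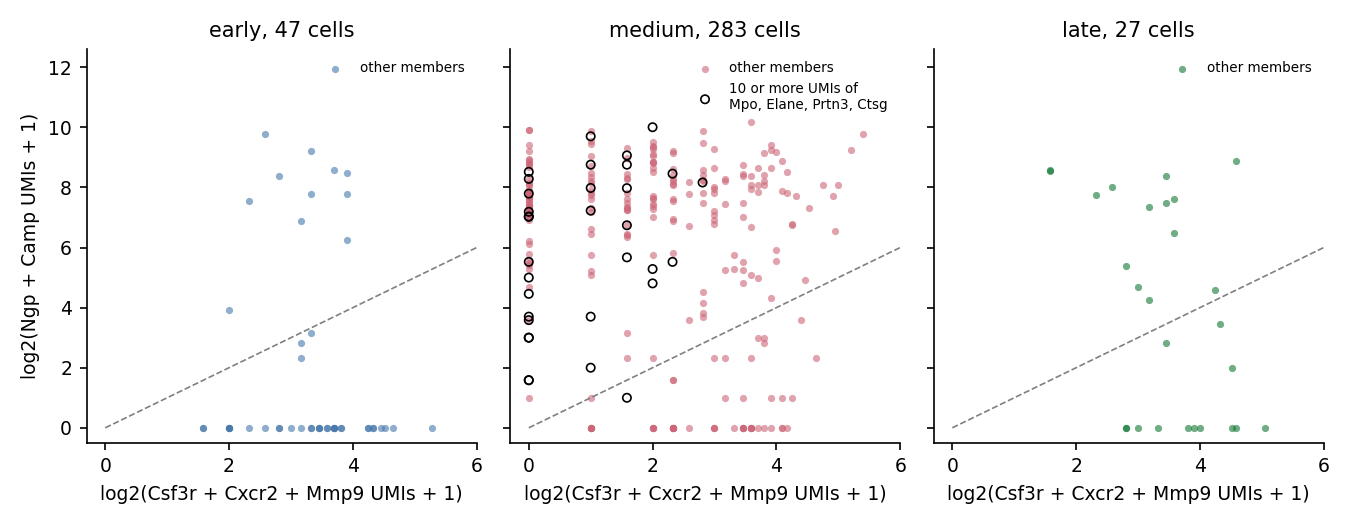
Each point is a neutrophil, placed by its UMIs of Csf3r, Cxcr2 and Mmp9 (horizontal) and of Ngp and Camp (vertical), both as log2 of UMIs plus 1, with a panel for each stage, a dashed line where both are equal and open circles for cells with 10 or more primary granule UMIs. At 0 on the vertical axis lie 33 of 47 early cells, and 232 of 283 medium cells lie above the dashed line.

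Levels of genes that do not define the axis changed along it. The 357 neutrophils were cut into 6 ranges of the index, each with its upper end and without its lower one, and levels are UMIs of a gene per 1000000 UMIs of the cells summed (CPM). Ltf, the iron-binding lactoferrin, was at 7075 CPM in the 74 cells above 7, highest at 9263 CPM between 4 and 7, and at 0 in the 51 cells at or below -3. Chil3, a chitinase-like protein, was at 10961 and 0 CPM in the same ranges, and Cebpe, a factor required for secondary granules, was at 358 and 0 CPM. Cybb, the heavy chain of the phagocyte oxidase, was at 3236 and 221 CPM. The primary granule genes, which cells make first, were not highest at the immature end. Elane was at 1802 CPM above 7, 1613 CPM between 4 and 7, 5455 CPM between 1 and 4 and 2883 CPM between -1 and 1, and Mpo at 666, 541, 1984 and 417 CPM, both with 0 below. Between -1 and 1 the primary granule UMIs came from a cell with 162 of them and a cell with 222, both in medium library A. These held 1 and 3 UMIs of Ngp and Camp and 2 and 1 of the mature genes. The index places cells with few UMIs of either set between its ends. Mmp8, neutrophil collagenase, was highest between these ends, at 36.6 CPM above 7, 4842 CPM between -1 and 1 and 1127 CPM at or below -3. Retnlg had the same shape, with 88.8, 23068 and 6664 CPM. Il1b, the cytokine interleukin-1 beta, ran the other way, from 75.7 CPM above 7 to 12124 CPM at or below -3, as did Cebpb, from 282 to 3492 CPM, and Clec4d, a lectin receptor, from 0 to 1415 CPM. Of the mature genes of the axis itself, Csf3r and Cxcr2 were highest at or below -3, at 3183 and 3161 CPM. Mmp9 was not, and was highest between 1 and 4 at 1804 CPM, with 18.3 CPM above 7 and 1492 CPM at or below -3. The ranges were cut from Ngp, Camp, Csf3r, Cxcr2 and Mmp9 of the same cells, so these levels describe them.

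**Figure D3:**
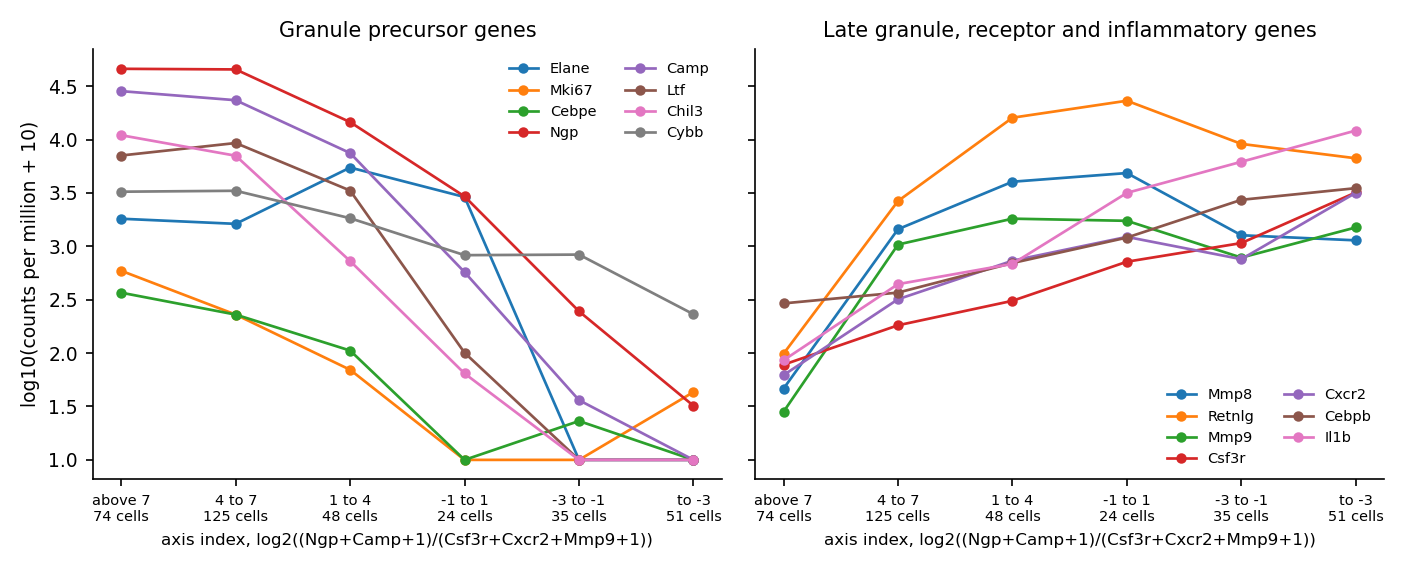
Level of named genes, as log10 of CPM plus 10, in the 6 ranges of the maturity index from immature (left) to mature (right). Ltf and Chil3 fall to 0 CPM at the mature end, Retnlg and Mmp8 peak between -1 and 1, and Il1b rises to 12124 CPM.

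Over the 357 neutrophils, the genes whose log level followed the index most closely were Chil3 (Pearson r = 0.89), Ltf (0.78), Cybb (0.73), Serpinb1a, a protease inhibitor (0.67), and Hmgn2, a nucleosome-binding protein (0.67). At the opposite end stood Il1b (-0.80), Srgn, the proteoglycan serglycin (-0.71), Dusp1, a phosphatase induced by stress (-0.70), Junb (-0.70) and Ccl6, a chemokine (-0.68). These describe cells that share libraries and depth and, in medium, barcodes. Within medium cells alone r was 0.88 for Chil3 and -0.76 for Il1b.

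Comparing the immature with the mature side by gene, 5597 genes had 30 or more UMIs over both, of which 21.8% were at least 2-fold higher and 18.7% at least 2-fold lower on the immature side (1218 and 1049 genes). Scaled to UMIs other than those of S100a8, S100a9, Ngp and Camp, they numbered 1508 and 815. The median neutrophil held 3075 UMIs on the immature side and 1709 on the mature side. All 8 measured primary granule genes were higher on the immature side (median log2 ratio 2.73), as were all 16 cell cycle genes (3.09, or 2.84 with the 3 genes at 0 on one side set to the floor of 3 UMIs). Of 14 secondary granule genes 10 were higher and none lower (2.77), and this list includes Ngp and Camp, which define the axis. Beyond the axis genes the largest ratios were those of Ltf (7342 against 10.1 CPM), Chil3 (7309 against 15.1 CPM) and Chil4 (511 against 0 CPM, at least 33.7-fold). Chil3 and Chil4 are near copies, so the split of reads between them is uncertain. Mmp8 (1458 against 1514 CPM), Hp, haptoglobin (840 against 853 CPM), Chil1 (546 against 394 CPM) and Pglyrp1 (990 against 616 CPM) were the 4 secondary granule genes within 2-fold.

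The mature side was higher in receptors, cytokines and immediate-early genes. Of 18 measured receptor and surface genes 15 were at least 2-fold lower on the immature side and 1, Ly6g, was higher (486 against 212 CPM). The receptor list includes Csf3r and Cxcr2 of the axis. Clec4d was at 31.1 CPM on the immature and 1126 CPM on the mature side, and Ccr1, a chemokine receptor, at 235 and 1524 CPM. Among inflammatory genes 13 of 14 were lower on the immature side, with Il1b at 368 against 8580 CPM, Cxcl2, a chemokine that attracts neutrophils, at 27.3 against 1004 CPM and Ptgs2, the inducible prostaglandin synthase, at 50.9 against 873 CPM. Among immediate-early genes 13 of 14 were lower (median -2.35), and among interferon-stimulated genes 10 of 13, with Cmpk2 higher (40.5 against 15.1 CPM). The 5 lowest ratios were those of Sirpb1b, Sirpb1a, Wfdc17, Sirpb1c and Steap4. The Sirpb1 genes are close copies whose separate values are uncertain, at 1.89, 1.89 and 4.71 CPM on the immature side and 490, 313 and 540 CPM on the mature side for Sirpb1b, Sirpb1a and Sirpb1c. Microglia markers (7 of 8 lower) and macrophage markers (7 of 7 lower) moved the same way, with summed levels of 984 against 3432 CPM and 2049 against 10407 CPM. Cd163 was at 0 on both sides, and the part of RNA from those cells in the result was not tested.

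Of 12 transcription factors of granulocyte development 3 were at least 2-fold higher and 7 lower on the immature side. Of all 5597 genes compared, 21.8% were higher and 18.7% lower there. The shares higher in this list, and in those of oxidase subunits and survival regulators below, were near that of all genes. Cebpe was at 245 CPM on the immature and 5.05 CPM on the mature side, Gfi1, which drives granulocyte over monocyte fate, at 80.1 and 5.05 CPM, and Myb, a factor of progenitors, at 93.3 and 15.1 CPM. Among those lower there, Cebpb, the factor of emergency granulopoiesis, was at 394 against 2862 CPM, Klf2 at 124 against 530 CPM and Spi1 at 416 against 888 CPM. Of 6 oxidase subunits 1, Cybb, was higher on the immature side (3002 against 479 CPM) and 1 was lower, with Cyba, Ncf1, Ncf4 and Rac2 within 2-fold. Of 10 measured regulators of survival 2 were higher and 4 lower on the immature side. Among those lower, Mcl1, on which neutrophils depend, was at 388 CPM on the immature and 2352 CPM on the mature side.

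RNA of the primary granule proteases was nearly all in the medium sample. Elane, neutrophil elastase, was at 2548 UMIs in medium neutrophils (2426 CPM), 0 in early and 1 in late. Mpo was at 874 UMIs in medium and 0 in both other stages, Prtn3 at 2074 against 1 and 0, and Ctsg at 592 against 0 and 0. The medium level was at least 109-fold that of early for Elane, at least 37.4-fold for Mpo and at least 25.3-fold for Ctsg, taking 3 UMIs as the floor of the early stage. Between libraries of the medium stage Elane ran from 1637 to 4078 CPM. All 8 measured primary granule genes were at least 2-fold higher in medium than early (median log2 ratio 6.37, or 4.44 with the 4 genes at 0 set to the floor), where 17.6% of 5369 genes were higher. All 8 were lower in late than medium, where 22.4% of 5139 genes were lower. Elane, Mpo, Prtn3 and Ctsg had the highest medium to early ratios of all genes named by symbol, followed by Cxcl13.

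A range of these cells was set apart by 10 or more UMIs of Mpo, Elane, Prtn3 and Ctsg together. It held 33 neutrophils, all from the medium sample (11.7% of its neutrophils, 8.16 to 16.0%), with 11, 7, 8 and 7 in libraries A to D. They carried 16 distinct barcodes, and with 1 copy of each barcode the range held 16 of 203 medium neutrophils. The interval and the library counts above treat every copy as a separate cell, so the libraries are not independent repeats. It held 0 of 47 early neutrophils and 0 of 27 late ones. Taking 3 cells as the limit of a count of 0, this allows up to 6.38% and 11.1%, and the exact 95% upper limits were 7.55% and 12.8%. Of the 33, 32 lay on the immature side and 19 held a UMI of Mki67, a marker of dividing cells. The median cell held 110 UMIs of the 4 genes, 234 of S100a8 and S100a9, and 4854 UMIs in all.

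Against the 225 other immature-side neutrophils, the primary granule range lacked later granule genes. Of 4863 genes compared 25.8% were at least 2-fold higher and 16.8% lower in the range, whose cells were chosen on 4 of the 8 primary granule genes. Retnlg was at 0 UMIs against 4621 (at least 430-fold lower), Mmp8 at 0 against 1546 (at least 144-fold), Mmp9 at 0 against 853 (at least 79.3-fold) and Ly6g at 0 against 515 (at least 47.9-fold). Ltf was at 194 against 9297 CPM, Lcn2 at 426 against 11499 CPM, Ngp at 11640 against 47464 CPM and Camp at 15347 against 23964 CPM. Camp was thus within 2-fold while Ltf was not. All 9 measured genes of the tertiary granule list, which is not limited to granule proteins, were lower (median log2 ratio -5.43, or -3.82 at the floor). Of 14 secondary granule genes 10 were lower and none higher (-1.71), and all 14 immediate-early genes were lower (-2.40). Among genes that were higher, Ms4a3, a marker of granulocyte and monocyte progenitors, was at 1373 against 62.4 CPM, Gfi1 at 271 against 27.6 CPM, Myb at 241 against 55.2 CPM and Gstm1, a glutathione transferase, at 1059 against 18.0 CPM. Cebpe (301 against 228 CPM) and Mki67 (314 against 319 CPM) were within 2-fold, and 5 of 16 cell cycle genes were higher. Macrophage markers (6 of 6) and microglia markers (7 of 8) were lower too, at summed levels of 280 against 2534 and 422 against 1137 CPM. Of 3 measured monocyte markers 2 were higher and 1 lower (median log2 ratio 1.24).

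Between early and medium, many secondary granule genes were higher in medium and many receptor and inflammatory genes lower. Among 5369 genes, 946 (17.6%) were at least 2-fold higher and 824 (15.3%) lower in medium, and the median log2 ratio of all genes was -0.00. Scaled to UMIs other than those of S100a8, S100a9, Ngp and Camp, 1103 genes were higher and 672 lower, and with a prior of 2 counts in place of 0.5, 485 were higher and 1036 lower. Of 14 secondary granule genes 7 were higher and none lower (median 0.92). Ngp was at 16325 CPM in early and 36408 CPM in medium, Camp at 8723 and 20421 CPM, Ltf at 3311 and 6666 CPM, and Chil3 at 2413 and 6880 CPM. The library range of Ngp was 5457 to 20810 CPM in early and 34183 to 37982 CPM in medium, which did not overlap. The early range covers the 3 libraries with 10 or more neutrophils. Cell cycle genes were higher in 12 of 16 (median 1.69, or 1.33 at the floor, where Tyms, at 0 UMIs in early, was at least 1.37-fold higher), with Mki67 at 44.5 and 310 CPM and Pcna, the replication clamp, at 29.7 and 218 CPM. Without early library B this median was 3.99. Cebpe was at 22.3 CPM in early and 242 CPM in medium, with 3 and 254 UMIs.

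Receptor, inflammatory and immediate-early genes made the opposite pattern. Of 18 receptor genes 13 were lower in medium and none higher (median -1.34), with Csf3r at 1381 CPM in early and 296 CPM in medium, Cxcr2 at 1292 and 400 CPM, and Clec4d at 839 and 107 CPM. Ly6g, the surface protein used to sort mouse neutrophils, was at 364 and 451 CPM. Of 14 inflammatory genes 10 were lower (-1.59), with Il1b at 5026 and 1030 CPM and Cxcl2 at 683 and 49.5 CPM. Of 14 immediate-early genes 13 were lower (-1.90), with Junb at 2680 and 545 CPM. This list summed to 16838 CPM in early, 4610 CPM in medium and 15501 CPM in late neutrophils. The other CD45+ cells had the same order, at 21126, 10816 and 18917 CPM. The part of a difference between whole samples in the neutrophil values was not tested. Interferon-stimulated genes were lower in 4 of 10 (-0.98). Of 10 measured genes of the tertiary granule list, which includes Mmp9 of the axis, 1 was lower in medium and none higher. That gene was Stfa2l1 (230 and 63.8 CPM). Of 15 measured genes of hypoxia and glycolysis 0 passed 2-fold in either direction (median 0.04). The lowest medium to early ratios beyond these lists were those of Steap4 (186 and 6.66 CPM), Adamts1 (193 and 12.4 CPM) and Gngt2 (134 and 11.4 CPM), each resting on 30 to 39 UMIs over both stages. Microglia markers were lower in medium in 7 of 8 genes, at a summed 4365 CPM in early and 927 CPM in medium, and macrophage markers in 4 of 6, at 4922 and 2907 CPM. Their part in the result was not tested.

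**Figure D4:**
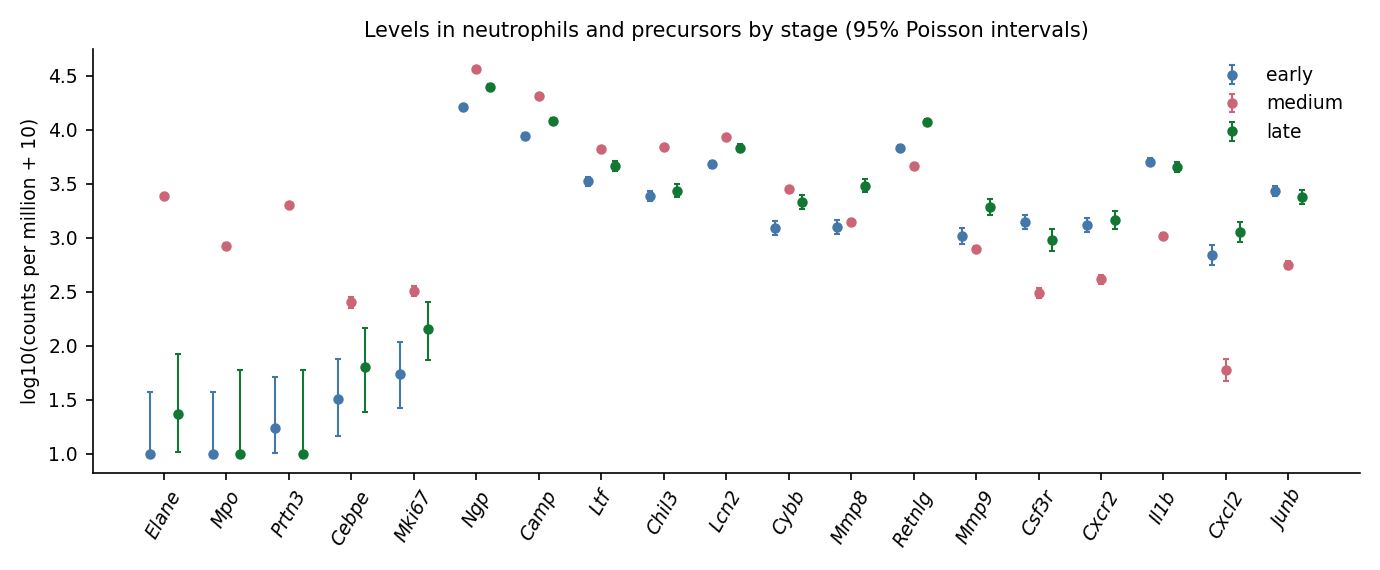
Levels of named genes, as log10 of CPM plus 10, in early, medium and late neutrophils, with 95% exact Poisson intervals. Elane, Mpo, Prtn3, Ngp, Camp, Ltf and Chil3 are highest in medium, and Csf3r, Cxcr2, Il1b and Cxcl2 are lowest there.

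Levels were also compared between stages within a side of the axis. The sides were cut from each cell's UMIs of Ngp, Camp, Csf3r, Cxcr2 and Mmp9, so the levels of these genes within a side follow in part from the split and only describe it. On the immature side Ngp was at 36226 CPM in early, 40272 CPM in medium and 35641 CPM in late, and Ltf at 7361, 7383 and 6557 CPM. Mmp8 was at 1857, 1318 and 3528 CPM there, and Retnlg at 8273, 3770 and 10487 CPM. On the mature side Ngp was at 188, 526 and 828 CPM, on 14, 53 and 19 UMIs. Il1b was there at 8739, 7697 and 11947 CPM, Csf3r at 2299, 1666 and 2529 CPM, and Cxcr2 at 2017, 1528 and 3619 CPM. Among 954 genes compared on the mature side, 6.6% were at least 2-fold higher and 7.65% lower in medium than early. Of 17 receptor genes there, Csf3r and Cxcr2 among them, 1 was higher and none lower (median -0.19), and of 10 inflammatory genes 2 were higher and 2 lower (-0.15). Immediate-early genes were lower in 4 of 14 (-0.82). These values rest on 36 early and 50 medium cells, with 74383 and 100813 UMIs.

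Genes of antigen presentation differed on the mature side, where all 4 measured members were higher in medium than early (median log2 ratio 2.65). Most belong to major histocompatibility complex class II, which presents antigen to helper T cells. H2-Aa was at 605 CPM in early, 3968 CPM in medium and 0 UMIs in late, Cd74, the invariant chain, at 807, 3978 and 43.6 CPM, and H2-Eb1 at 282, 3125 and 43.6 CPM. The other CD45+ cells differed between stages in the same genes, with H2-Aa at 2110 CPM in early, 10285 CPM in medium and 3679 CPM in late and the 9 genes of the list at a summed 7215, 31392 and 12106 CPM. In mature-side neutrophils the list summed to 1909 CPM in early and 12002 CPM in medium, with a median of 0 UMIs a cell in both. Macrophage markers on the mature side summed to 6251 CPM in early, 15038 CPM in medium and 3532 CPM in late, and Apoe alone was at 739, 9126 and 1919 CPM. The part of macrophage or dendritic cell RNA in the class II values was not tested.

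The late neutrophils resembled neither stage in full. Against early, 1078 genes could be compared, of which 3.25% were at least 2-fold higher and 11.4% lower in late (35 and 123 genes, or 55 and 85 when scaled without those 4 genes). Without late library D they numbered 63 and 208, and 80 were lower without early library B. Leaving out neutrophils with 5 or more UMIs of another type gave 30 and 62. Microglia markers were lower in late in 5 of 8 (median -1.48) and macrophage markers in 2 of 5, with 1 higher (-0.77). Their part in the result was not tested. Of 12 secondary granule genes 1 was higher, Mmp8 (1247 CPM in early and 3023 CPM in late), and none lower (median 0.53). This median was 0.01 without late library C and 1.02 without late library D. Retnlg was at 6696 CPM in early and 11745 CPM in late, and Mmp9 at 1025 and 1918 CPM, both below 2-fold. Receptor genes had 1 member higher, Ccrl2 (134 and 360 CPM), and 1 lower, Clec4d (839 and 413 CPM), of 17. Of 14 immediate-early genes 1, Atf3, was lower (453 and 173 CPM). Among interferon-stimulated genes 2 of 7 were higher, Isg15 (156 and 426 CPM) and Rtp4 (156 and 360 CPM). Of 9 inflammatory genes 1 was higher, Il1rn, the antagonist of the interleukin-1 receptor (156 and 506 CPM), and 2 were lower (median -0.20). The highest ratio was that of Apoe (512 and 4235 CPM), for which 251 of 318 late UMIs came from 1 cell. It was followed by Cd3d, Rgs19, Kmt5a and Arf6, at 306, 306, 439 and 266 CPM in late. The lowest ratios were those of Irf8 (297 and 13.3 CPM), Cpd, Fgfr1op2, Rnf19b and Mat2a, each with 1 or 2 UMIs in late.

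Against medium, late neutrophils were higher in the genes of the mature end. This comparison shares its late cells with that of late and early and its medium cells with that of medium and early. Of 5139 genes 13.1% were higher and 22.4% lower in late (674 and 1150 genes). A prior of 2 counts turned this balance to 985 higher and 322 lower, and without late library D 699 were higher and 1733 lower. Immediate-early genes were higher in 13 of 14 (median 2.03), inflammatory genes in 9 of 13 (1.47), interferon-stimulated genes in 8 of 11 (1.58) and receptor genes in 10 of 18 (1.24), with none lower in these lists. In the other CD45+ cells the immediate-early list was also higher in late, at a summed 10816 CPM in medium and 18917 CPM in late. Microglia markers were higher in 4 of 8 (median 1.05), at a summed 927 CPM in medium and 2157 CPM in late, and macrophage markers in 2 of 6 (0.96), at 2907 and 6938 CPM. Of the 521 late UMIs of macrophage markers 353 came from 1 cell, and the part of such RNA in the result was not tested. Cxcl2 was at 49.5 CPM in medium and 1119 CPM in late, but 39 of its 84 late UMIs came from 1 cell. Rsad2, an antiviral enzyme, had 21 UMIs in the far deeper medium sum and 17 in late (226 CPM), a log2 ratio of 3.51. Rtp4 was at 33.3 and 360 CPM. Acta2 (14.3 and 280 CPM) was also among the 5 highest. After Prtn3, Mpo, Elane and Ctsg the lowest ratio was that of Apobec3, an RNA and DNA deaminase, with 438 UMIs in medium, 176 of them in 1 cell, and 0 in late.

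On the immature side alone, with 14 late and 232 medium cells, 13.2% of 4619 genes were higher and 23.5% lower in late. Immediate-early genes were again higher in 13 of 14 (median 1.98), with Junb at 336 CPM in medium and 1150 CPM in late. Macrophage markers were higher in 5 of 5 and microglia markers in 6 of 7, at summed levels of 1619 and 8436 CPM and of 731 and 2837 CPM. The cell with 353 UMIs of macrophage markers lay on this side and held most of the 440 late UMIs of those markers there. Their part in the result was not tested. Of 14 secondary granule genes 1 was higher and 1 lower.

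**Figure D5:**
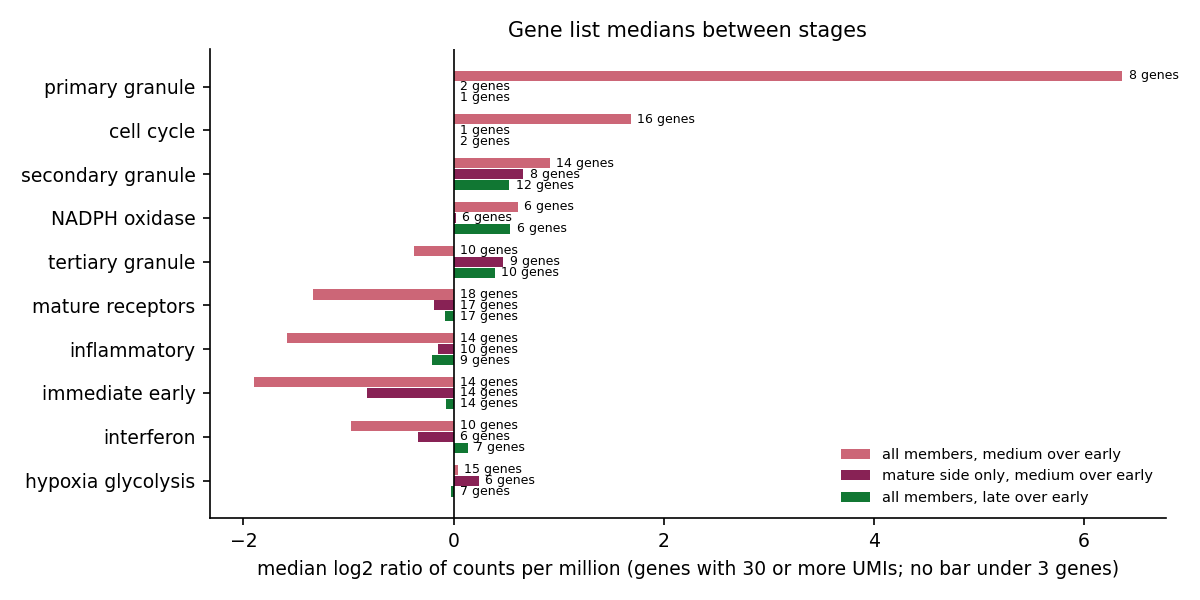
Median log2 ratio of the measured genes of each list for medium over early neutrophils, for the same on the mature side only, and for late over early, with the number of genes measured and no bar under 3 genes. For medium over early the primary granule list reaches 6.37 and the immediate-early list -1.90, against -0.82 on the mature side.

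Of 17 genes often used to describe suppressive neutrophils 12 could be compared between medium and early, of which 1 was higher and 6 lower in medium (median log2 ratio -1.01), against 17.6% higher and 15.3% lower of all genes. In late, 6 of 11 were higher than in medium and none lower (1.25), against 13.1% and 22.4% of all genes. On the immature side 9 of 12 were lower than on the mature side and 1 higher (-2.01), against 18.7% and 21.8%. The list holds S100a8 and S100a9, which chose the neutrophils. Of 20 genes used to describe long-lived tumor neutrophils 13 could be compared between medium and early, with 3 higher and 1 lower in medium (0.07), shares near or under those of all genes. In late, 1 of 13 had a ratio to medium past 2-fold upward and 7 downward (-1.18, or 0.07 with the 2 genes at 0 set to the floor). Of those 7, Hilpda and Mif had 0 UMIs in late, which at that depth still allows their medium level, so they cannot be called lower. Other genes of interest here were scarce. Arg1 (arginase 1) had 1 UMI in all 357 neutrophils, and Nos2, Il10 and Il6 had 0, which allows up to 2.38 CPM. Cd274 (PD-L1) had 1, 12 and 5 UMIs in early, medium and late. Arg2 was at 19.8 CPM on the immature and 162 CPM on the mature side, and Olr1, the LOX-1 receptor used for human suppressive neutrophils, ran the other way at 107 and 20.2 CPM. Ero1l, a folding enzyme of the endoplasmic reticulum, was at 44.5 CPM in early and 208 CPM in medium, with 3 UMIs in late. Siglecf had 12 UMIs in all. Vsir (VISTA), a checkpoint ligand of myeloid cells, was at 453, 368 and 306 CPM, and Cd47 at 416, 463 and 453 CPM, without reaching 2-fold between stages. Vegfa, an angiogenic factor, was at 29.7, 57.1 and 26.6 CPM, on 4, 60 and 2 UMIs.

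Against the other 10861 CD45+ cells, which are mostly microglia, macrophages and lymphocytes of the tumor, the neutrophils differed by construction in S100a8 and S100a9. Of 17145 genes 11.4% were at least 2-fold higher and 32.4% lower in neutrophils. The highest ratios were those of Ngp (33582 against 4.77 CPM), Itgb2l, an integrin subunit of neutrophils (168 UMIs against 0), Camp (18673 against 2.99 CPM), Ltf (6181 against 1.09 CPM) and Lcn2 (7947 against 1.70 CPM). The lowest were those of Retnla, Mcpt2, Mcpt1 and Nrip1, at 0 UMIs in neutrophils, and Ttr, at 1 UMI. Retnla is made by alternatively activated macrophages and Mcpt1 and Mcpt2 by mucosal mast cells. All 10 microglia and all 10 macrophage markers were at least 2-fold lower in neutrophils.

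RNA of other cell types was nevertheless present. Microglia markers summed to 4365 CPM in early, 927 CPM in medium and 2157 CPM in late neutrophils, and macrophage markers to 4922, 2907 and 6938 CPM, with Cd163 at 0 in every stage. In the other CD45+ cells they summed to 13809 and 25127 CPM. Cd3d, a chain of the T cell receptor complex, had a UMI in 59 neutrophils (5 early, 43 medium and 11 late), whereas Cd3e had 1 UMI in all. The human EGFR transgene had 132 UMIs in 5 medium neutrophils, 116 of them in 1 cell, and 0 elsewhere. Cxcl13, a B cell chemokine, had 288 UMIs in 29 medium neutrophils and 78 in the highest cell. The 77 neutrophils counted above held 5 or more UMIs of microglia, macrophage, T cell or B cell markers. Of these, 50 lay on the immature and 27 on the mature side. Monocyte markers were not part of that count, and 10 early, 104 medium and 5 late neutrophils held 5 or more UMIs of them. Whether these droplets held a second cell was not tested.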

How the data were processed

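Counts were analysed for 24 inDrop libraries (3 stages, CD45+ and CD45- sorts) that GEO lists as 3 sequencing runs. The deposited values are whole-number UMI counts per gene and cell, made by the authors with RapMap in bcbio-nextgen against the GRCm38 transcriptome (Ensembl) with transgenes added (mm10 in the submitters' processing notes). Cells were called by the authors against near-empty droplets, and their methods describe removal of ambient RNA and of doublets, but whether this preceded the table is not stated, so free RNA and doublets may raise low levels. Libraries were assigned to stage and sort by the text annotation (other than counts) that the authors deposited. All 50262 genes were used, 50150 with a symbol, and 0 columns of values were left unmapped. Scrublet (scanpy 1.11.5) called 33 of 11110 CD45+ cells (0.297%), without late libraries A and B, which were too small to be scored. These were too few to be taken as working, so doublets were kept and a marker-based alternative was run.

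Analyses used Python 3.11.15, numpy 2.4.6, scipy 1.17.1 and pandas 2.3.3. UMIs were summed over cells and scaled to 1000000 (CPM). Log2 ratios used a prior of 0.5 counts and genes with 30 or more UMIs over both groups, and a gene was called at 2-fold or more. Log2 ratios were tested on simulated data with known changes, and the intervals were not. Median depth was 2115, 2556 and 2140 UMIs a neutrophil and the summed UMIs were 134698, 1050323 and 75093. The members and the 32 gene lists were chosen with earlier results of these data known. Genes named were members of the lists (abundant ones and those past 2-fold), the 5 highest and 5 lowest ratios of each comparison, leaving out predicted symbols, mitochondrial and sex-linked marker genes, and the 5 genes most like the axis. The 5 least like it, the primary granule range and genes within 2-fold were added after their values were seen. Alternatives covered the UMI minimum, the cell filter, doublets, each library left out, runs, scaling, the prior and the gene filter. Some alleles and genes are not reported here.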

Additional observations from a re-analysis of the deposited data

Results flagged for a closer look

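In 3 of 7 groups of 4 libraries, 1 library stood apart from the other 3 by Dixon's criterion. Chance meets it in about 1 in 20 groups where all values have equal error. These libraries differed in cell number, so that rate need not hold here. Early library A held neutrophils at 4.20% of its 143 CD45+ cells, against 0.684 to 1.04% in the other early libraries, on 6 cells. The same library had 50% of its neutrophils on the immature side (3 of 6, 95% interval 11.8 to 88.2%), against 16.7 to 22.2%, which lie within that interval. Medium library B held neutrophils at 4.79% of 1481 cells, against 8.13 to 8.77% in the other medium libraries. Their causes were not tested.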

How the results depend on the processing

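A share was held to its 95% counting interval, a list median to its jackknife spread over libraries and a count of genes to 1.5-fold. Of 529 alternative values for 22 results, 104 left out a library of a stage that the result does not use and could not move. Of the other 425, 383 stayed within these bounds, 42 moved beyond them, and 0 medians past 2-fold changed sign. The immediate-early median for late over early, -0.08, lay just above 0 under 3 of them. Alternatives with 1 copy per barcode, on the mature side only and without the primary granule range were chosen after seeing the data. The medium share was 5.70% with 1 copy per barcode, 5.77% without neutrophils holding 5 or more UMIs of another type, and 8.13% within run 3. The early share was 0.667% without such neutrophils, which also left 62 genes lower in late than early.

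Genes past 2-fold numbered 946 higher and 824 lower for medium over early, 35 and 123 for late over early, 674 and 1150 for late over medium, and 1218 and 1049 for immature over mature. A minimum of 10 UMIs gave 1967 and 1965, 314 and 595, 1603 and 2181, and 2158 and 2099, since more genes were compared. A prior of 2 gave 485 higher for medium over early and 322 lower for late over medium. Within run 3, 254 were higher and 298 lower for medium over early, and 339 and 411 for immature over mature. Within run 2, 670 were lower on the immature side. The mature side alone gave 63 and 73 for medium over early and 71 and 142 for late over medium, from fewer genes. Higher genes for late over early numbered 61 by the mean over cells and 55 when scaled without S100a8, S100a9, Ngp and Camp.

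For medium over early the secondary granule median was 1.27 within run 3, 1.69 by the mean over cells, 0.67 on the mature side and 1.13 without the primary granule range. The primary granule median was 5.65 by the mean over cells and 4.40 with a prior of 2. On the mature side the receptor, inflammatory and immediate-early medians were -0.19, -0.15 and -0.82, and the inflammatory one was -2.15 within run 3.

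Leaving out 1 library at a time gave a medium share of 6.69 to 8.46% (highest without medium library B), and an immediate-early median for medium over early of -2.31 to -1.89. Late over early gave 32 to 63 genes higher and 80 to 208 lower, with 63 and 208 without late library D and 80 without early library B. Late over medium gave 941 to 1733 lower, 1733 without late library D. The immediate-early median for late over early ran from -0.37 to 0.01. No paired analysis was possible because each stage is 1 sample whose libraries are technical repeats. Late values rest on 27 cells and 75093 UMIs.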

Other observations

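Outside the neutrophils, 29 further medium CD45+ cells held 10 or more UMIs of Mpo, Elane, Prtn3 and Ctsg, with 5, 8, 8 and 8 in libraries A to D and 17 distinct barcodes. Of these barcodes 3 also occurred among the 33 neutrophils of the same range, so the cells of both sets, 62 in all, carried 30 distinct barcodes, and whether any were 1 cell counted more than once was not tested. They fell short of the threshold on S100a8 and S100a9, of which they held 0 to 24 UMIs (median 1). The early and late samples and the CD45- sort held 0 such cells. Myb was at 694 CPM in these cells and 241 CPM in the neutrophils of the same range. Elane was at 8668 and 10917 CPM, Gfi1 at 72.4 and 271 CPM, and Ngp at 12.1 and 11640 CPM. A UMI of Mki67 was found in 11 of the 29 and of Ly6c2, a monocyte and progenitor surface protein, in 28. All 33 neutrophils of the range also held a UMI of Ly6c2. The range was set after values were seen.

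Genes of early B cells were counted in all kept CD45+ cells as another marrow lineage. Igll1 and Vpreb1, which form the surrogate light chain of B precursors, had 58 and 105 UMIs in medium cells, 0 and 4 in early and 0 and 8 in late. Vpreb3 had 12, 194 and 11 UMIs in early, medium and late, and Dntt, the terminal transferase of lymphoid precursors, 8, 42 and 3. Cd79a, which B cells keep at later stages, had 37, 278 and 33 UMIs, so that this gene too had the most UMIs in medium. Igll1 and Vpreb1 had 0 UMIs in the 357 neutrophils. At that depth this still allows the Igll1 level of the other CD45+ cells, and it places Vpreb1 at least 1.99-fold lower.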
